A study of Mus musculus with 3 samples.

Results

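A set of 10 genes of purine signalling was followed in enteric neurons: the ATP-gated channel subunits P2rx2, P2rx3, P2rx4, P2rx5, P2rx6 and P2rx7, the nucleotide receptors P2ry1 and P2ry14, the adenosine receptor Adora1, and Slc17a9, the transporter that loads ATP into vesicles. They were taken by symbol, and all 10 were among the 33353 genes listed. ATP released by enteric neurons acts on P2X receptors, which are cation channels opened by ATP itself, and on P2Y receptors, which couple to G proteins. P2X receptors carry part of the fast excitation between myenteric neurons, while P2RY1 in the muscle layer mediates the fast relaxation set off by inhibitory nerves. Ectoenzymes cut ATP down to adenosine, which dampens transmitter release through the A1 receptor encoded by Adora1.

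The cells came from 3 individual mice of the C57BL/6 strain label, all at postnatal day 14 and all of the Ednrb-KO genotype, a model of Hirschsprung disease in which the endothelin receptor B gene is disrupted. Every mouse also carried Wnt1-Cre and a tdTomato reporter, so that cells of neural crest origin were red, and tdTomato-positive cells were sorted from the longitudinal muscle and myenteric plexus of the whole small intestine, which keeps its ganglia in this model. There was no control genotype in the files used here, so classes of cells were compared within mice and nothing below says what loss of Ednrb did. The authors had already reduced the cells to 2060 called neurons, 354 in mouse 1, 1050 in mouse 2 and 656 in mouse 3.

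Values are UMIs (unique molecular identifiers, each marking 1 captured RNA molecule). A single UMI sufficed to count a cell as holding a gene, and a level is the gene's UMIs per 10000 UMIs summed over the cells of a class in 1 mouse. Nos1-only cells (962) had Nos1, the neuronal nitric oxide synthase of inhibitory neurons, and no Chat. Chat-only cells (277) had Chat, the acetylcholine-making enzyme of cholinergic neurons, and no Nos1. Nmu-positive cells (200) had the peptide gene Nmu, and Sox10-positive cells (1088) had Sox10, a transcription factor that defines enteric glia. The last classes overlap with the others.

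Mouse 1 stood apart from the others. Its median cell held 3734.5 UMIs, against 9599.5 in mouse 2 and 9578.5 in mouse 3, and its summed smooth muscle markers were at 77.6 per 10000, against 17.4 and 11.8. Cells whose smooth muscle marker UMIs exceeded 5 times their neuronal marker UMIs numbered 65, of which 53 were from mouse 1. All 10 neuronal markers were detected in every mouse, at a sum of 70.4 to 84.1 per 10000. Sox10 was detected in 52.8% of the cells called neurons. Ednrb RNA was itself detected in 42.7%, 68.9% and 58.8% of cells in mice 1, 2 and 3, and since a count at the 3' end need not cover the disrupted part of the gene, this checks no label. Libraries shared 2 cell barcodes.

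Over 5% of cells held each of 4 members. P2rx2, a subunit of the ATP-gated channels known for fast transmission in myenteric neurons, was detected in 15.3%, 19.5% and 22.1% of cells in mice 1, 2 and 3 (19.0% ± 3.46, SD, n = 3), with 670 UMIs in 404 cells. P2ry1, the ADP-preferring P2Y receptor, was detected in 13.3%, 21.0% and 19.5% (17.9% ± 4.12), with 552 UMIs in 396 cells. P2rx7, the ATP-gated channel known for its need of high ATP and from glia and immune cells, was detected in 11.3%, 15.3% and 14.6% (13.8% ± 2.16), and P2rx4, a widely expressed and highly ATP-sensitive subunit, in 5.93%, 12.1% and 10.4% (9.46% ± 3.18). These shares depend on depth. With every cell thinned to 3000 UMIs they were 9.83% ± 1.54 for P2rx2, 7.30% ± 1.95 for P2ry1, 6.42% ± 1.34 for P2rx7 and 3.62% ± 1.15 for P2rx4, after 78, 55 and 45 shallower cells were left out of mice 1, 2 and 3.

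Levels per 10000 take depth into account. P2rx2 stood at 0.570, 0.321 and 0.391 UMIs per 10000 in mice 1, 2 and 3, and P2ry1 at 0.354, 0.309 and 0.278. P2rx7 was highest in mouse 1, at 0.288 against 0.175 and 0.165, and P2rx4 lay at 0.144, 0.141 and 0.114. The form of detection also differed. P2rx2 had 2 or more UMIs in 127 of its 404 positive cells and reached 16 in a single cell, while P2rx4 had 2 or more in 22 of 216 and never passed 3.

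The smooth muscle-dominated cells show how often a UMI appears in cells poor in neuronal RNA, at a median of 3670 UMIs a cell. There P2rx2 was detected in 1 of 65 cells (1.54%) and P2rx4 in 1, against P2ry1 in 5 (7.69%) and P2rx7 in 8 (12.3%). Most of these cells were from the shallow mouse 1, so they were read within it: of its 53 such cells P2rx7 was found in 6 (11.3%, as in 11.3% of all cells of that mouse), P2ry1 in 3 (5.66%, against 13.3%), and P2rx2 and P2rx4 in 0, which allows a share of up to 5.66%. That limit is below the 15.3% of all cells of mouse 1 with P2rx2 but close to the 5.93% with P2rx4, so a difference in P2rx4 was not detectable. Intervals and limits cover counting error only. Whether the P2rx7 UMIs in these cells are the cells' own or free RNA was not tested.

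The other 6 members were rare. Adora1 was detected in 61 cells, at 3.95%, 2.10% and 3.81% of mice 1, 2 and 3. P2ry14, the receptor for UDP-sugars, was detected in 30 cells with 31 UMIs, Slc17a9 in 15 with 15, P2rx6 in 10 with 10, P2rx3 in 9 with 11, and P2rx5 in 1 with 1. Of the rare members, only Adora1 and P2ry14 had the 30 UMIs that a test required, and P2ry14 had them in the Nmu and Sox10 comparisons only.

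P2rx3, the subunit that pairs with P2RX2 in sensory neurons, lay in few cells and mostly in 1 mouse. The mice gave 1, 8 and 0 positive cells in order, and 7 of the 9 cells were Nos1-only. Nos1-only cells were 46.7% of all cells and Chat-only cells 13.45%, and 9 cells are too few to place P2rx3 in a class. P2rx3 was found in 0 of 277 Chat-only cells, which allows a share of up to 1.08% (3 counts of the total). Of the 9 cells, 1 in mouse 1 and 4 in mouse 2 also had P2rx2. P2rx5 was found in 0 of 962 Nos1-only, 0 of 277 Chat-only, 0 of 200 Nmu-positive and 0 of 1088 Sox10-positive cells, which allows up to 0.312%, 1.08%, 1.5% and 0.276%. P2rx6, which hardly forms channels alone, was spread over 2, 5 and 3 cells of the mice, with no second UMI in any cell.

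Slc17a9 RNA was scarce. Its 15 UMIs lay in 5, 6 and 4 cells of mice 1, 2 and 3, or 1.41%, 0.571% and 0.610%, and 5 of the 15 cells were Nos1-only, 4 Chat-only, 2 Nmu-positive and 10 Sox10-positive. At this depth the vesicular ATP transporter could not be placed in a class of neurons. P2ry14 was detected in 9 of 962 Nos1-only and 9 of 277 Chat-only cells, 0.936% (95% interval 0.429 to 1.77%) and 3.25% (1.5 to 6.08%), a difference that was not tested because the gene had too few UMIs there.

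**Figure D1:**
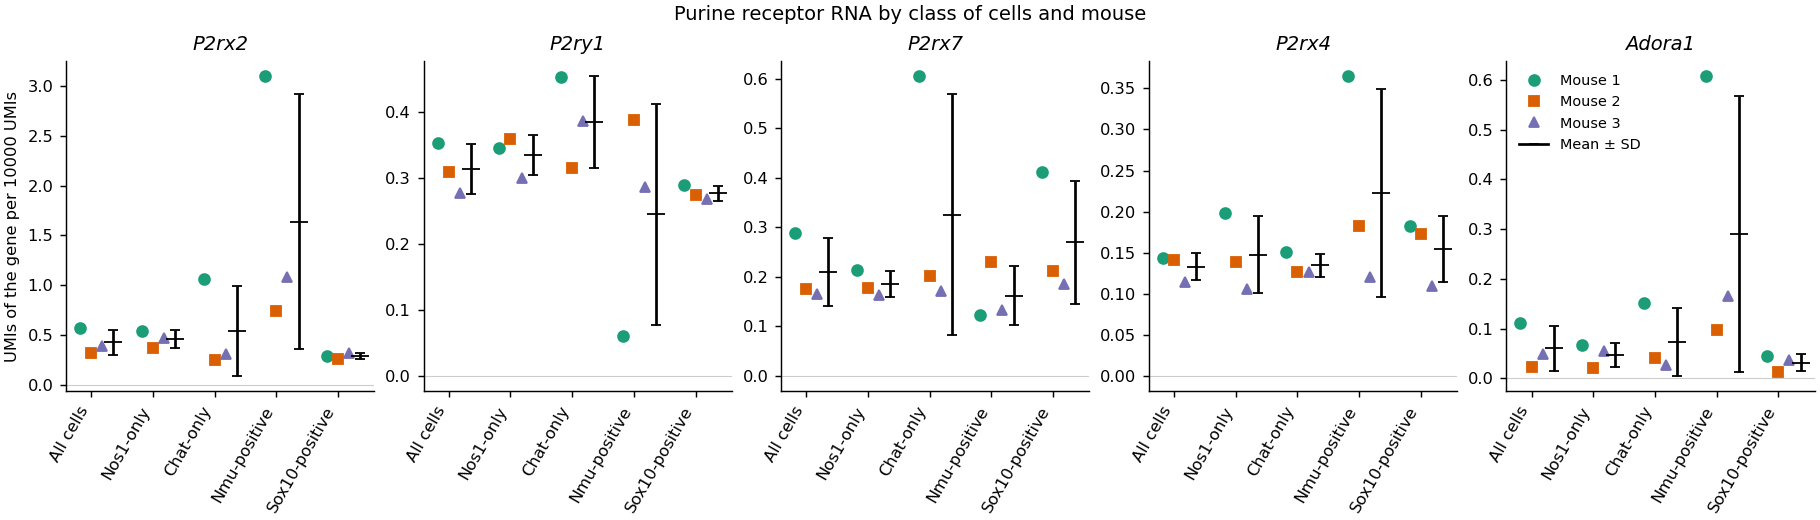
UMIs of each gene per 10000 UMIs (vertical axes, each with its own scale) in all cells and in 4 overlapping classes, 1 symbol per mouse, with the mean and SD of 3 mice in black. P2rx2 and Adora1 were highest in the Nmu-positive cells in every mouse, and mouse 1 lay far above the others there, at 3.10 UMIs per 10000 for P2rx2.

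Nos1-only and Chat-only cells were compared to ask whether purine receptors separate the main inhibitory and excitatory classes. None of the 5 members tested was called. P2rx2 was detected in 17.7%, 25.8% and 29.9% of Nos1-only cells in mice 1, 2 and 3 and in 31.2%, 13.5% and 11.5% of Chat-only cells, so that mouse 1 went the other way from the other two. Its level was 0.544, 0.371 and 0.469 per 10000 in Nos1-only cells and 1.06, 0.248 and 0.315 in Chat-only cells, and the 2 ranges overlap. Mouse 1 gave only 16 Chat-only cells, of which 5 had P2rx2.

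The comparison was fitted with limma on log2 of UMIs per 10000 + 0.1, with the mouse as a block and Benjamini-Hochberg adjustment over all genes, and calls were made at an adjusted p under 0.05. By this fit 21 of 12241 genes were called (0.172%), and 1441 had an unadjusted p under 0.05, among them 0 of the 5 members. P2rx2 differed by 0.02 on the log2 scale (Nos1-only minus Chat-only, 95% interval -0.75 to 0.78, adjusted p = 0.985 by limma), P2rx4 by 0.06 (-0.54 to 0.67), P2ry1 by -0.15 (-0.68 to 0.38), Adora1 by -0.18 (-0.79 to 0.43) and P2rx7 by -0.44 (-1.21 to 0.33). The median over all genes tested was 0.03 and over the 5 members -0.15.

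Leaving out mouse 1 turned P2rx2 into a call, at 0.45 higher in Nos1-only cells (SE 0.14, adjusted p = 0.042 by limma, 2 mice), but in that fit 17.7% of all genes were called. Limma-voom on the recovered UMIs called 10.7% of all genes and 0 of the 5 members. P2ry1 showed no such split: 0.346, 0.359 and 0.301 per 10000 in Nos1-only cells of mice 1, 2 and 3, and 0.454, 0.315 and 0.387 in Chat-only cells.

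The level of P2rx2 RNA was higher in Nmu-positive cells than in the rest in every mouse. P2rx2 was detected in 80.6%, 30% and 39.3% of Nmu-positive cells in mice 1, 2 and 3, and in 8.98%, 18.7% and 19.4% of Nmu-negative cells. Its level was 3.10, 0.740 and 1.08 per 10000 against 0.264, 0.284 and 0.278, and the groups do not overlap. Nmu, which encodes neuromedin U, is known in the gut as a marker of a group of enteric neurons with sensory traits. Nmu-positive cells were 9.71% of the cells and held 10.4% of all UMIs and 31.3% of the P2rx2 UMIs.

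In the design fixed for all genes this difference was not called. P2rx2 was 1.97 higher on the log2 scale (SE 0.36, 95% interval 1.12 to 2.82, unadjusted p = 0.000882 and adjusted p = 0.255 by limma, higher in 3 of 3 mice). Only 3 of 13021 genes were called there (0.023%), while 897 had an unadjusted p under 0.05. Of the 6 members tested 0 were called, and 2 of the 6, P2rx2 and Adora1, had an unadjusted p under 0.05. The median difference was -0.07 over all genes tested and 0.32 over the 6 members.

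The mice differed in how many Nmu UMIs the positive cells held. At least 2 Nmu UMIs were found in 25 of the 31 Nmu-positive cells of mouse 1, but in 15 of 80 in mouse 2 and 30 of 89 in mouse 3. Cells with exactly 1 Nmu UMI had P2rx2 in 12 of 65 in mouse 2 (18.5%) and 12 of 59 in mouse 3 (20.3%), near the shares of the Nmu-negative cells, and in 5 of 6 in mouse 1. In cells with 2 to 4 Nmu UMIs the share was 66.7%, 62.5% and 53.8% in mice 1, 2 and 3, and in cells with 5 or more it was 92.3%, 100% and 94.1%. These bins are small, with 12, 8 and 13 cells and then 13, 7 and 17 cells in mice 1, 2 and 3.

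Pooled over mice, the P2rx2 share was 17.2%, 22.3%, 60.6% and 94.6% at 0, 1, 2 to 4 and 5 or more Nmu UMIs, and its level 0.280, 0.283, 1.65 and 3.37 per 10000. Depth did not follow the same order, with median totals of 8198, 8605.5, 5705 and 10442 UMIs a cell, and after thinning to 3000 UMIs the shares were 7.62%, 9.02%, 41.9% and 59.5%. The 70 cells with 2 or more Nmu UMIs, 3.4% of the cells, held 26.0% of the P2rx2 UMIs. In them P2rx2 was detected in 80.0%, 80.0% and 76.7% in mice 1, 2 and 3, at 3.38, 2.98 and 2.46 per 10000, so the mice were close.

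**Figure D2:**
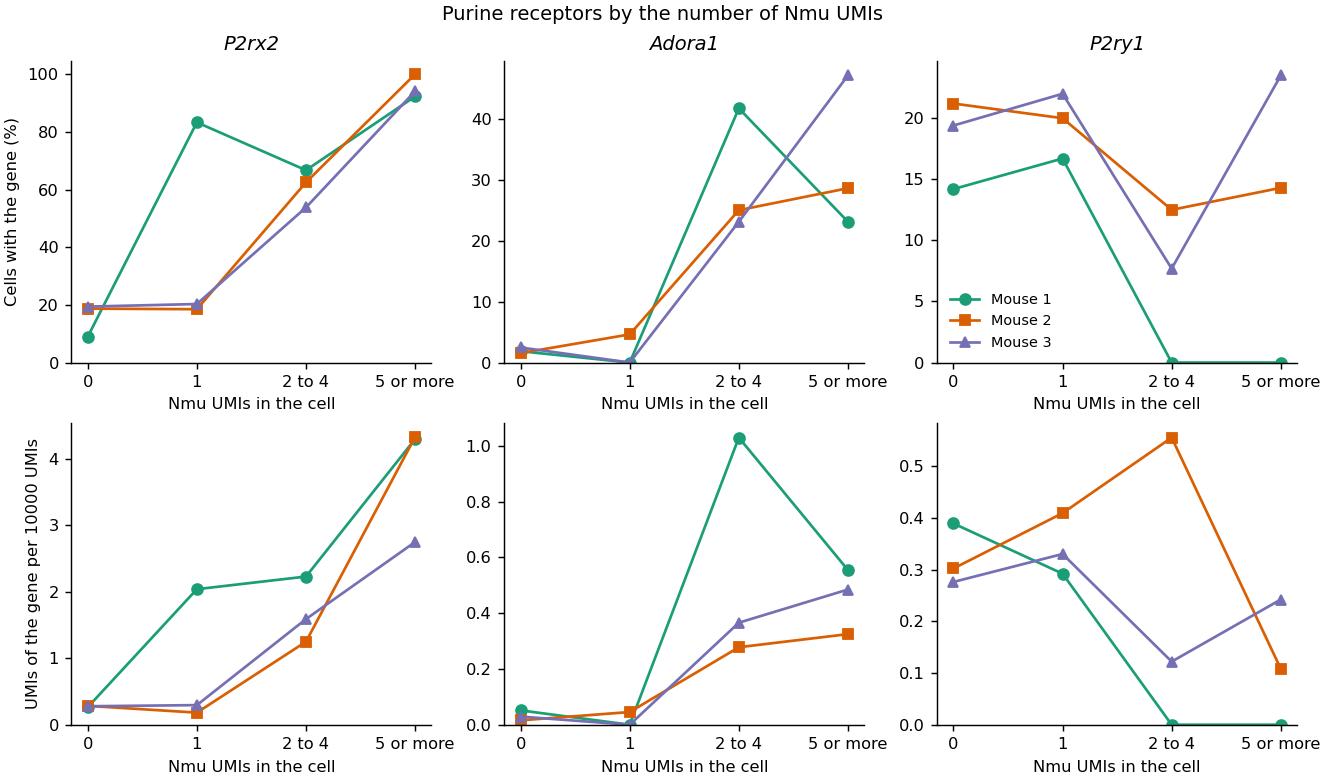
Share of cells with the gene in percent (top) and its UMIs per 10000 UMIs (bottom) by the number of Nmu UMIs in the cell, 1 line per mouse. P2rx2 lay near its level in Nmu-negative cells at 1 Nmu UMI in mice 2 and 3 and reached 92.3% to 100% of cells at 5 or more, Adora1 moved from under 5% of cells to 23.1% to 47.1%, and P2ry1 stayed below 25%.

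With the class set at 2 or more Nmu UMIs, an alternative planned for the class rule, P2rx2 was called 3.0 higher (SE 0.23, adjusted p = 4.43e-06 by limma, 3 of 3 mice) and Adora1 2.14 higher (SE 0.35, adjusted p = 0.00272), in a fit that called 4.13% of all genes. Limma-voom called the same members, P2rx2 at 2.08 and Adora1 at 2.84, with 1.11% of all genes called. P2rx2 was also called without mouse 1 (1.39, adjusted p = 3.39e-05 by limma), without mouse 2 (2.39, adjusted p = 0.00245) and without mouse 3 (2.13, adjusted p = 0.000222), in fits on 2 mice that called 1.02%, 0.558% and 0.711% of all genes. Without mouse 1 Adora1 was called as well (0.90, adjusted p = 0.0107 by limma).

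Adora1, the inhibitory adenosine receptor, followed P2rx2 into these cells at a lower frequency. It was detected in 25.8%, 8.75% and 12.4% of Nmu-positive cells in mice 1, 2 and 3 and in 1.86%, 1.55% and 2.47% of Nmu-negative cells. Its level was 0.608, 0.0970 and 0.166 per 10000 against 0.0514, 0.0157 and 0.0291, again without overlap. The difference was 1.34 on the log2 scale (SE 0.31, 95% interval 0.61 to 2.08, unadjusted p = 0.00328 and adjusted p = 0.508 by limma), which was not a call. In the cells with 2 or more Nmu UMIs Adora1 was found in 8 of 25, 4 of 15 and 11 of 30 cells, and these 70 cells held 42.3% of its 71 UMIs.

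No call was made for the other receptors in these cells. P2ry1 was detected in 3.23%, 18.8% and 20.2% of Nmu-positive cells in mice 1, 2 and 3, against 14.2%, 21.2% and 19.4% of Nmu-negative cells, a log2 difference of -0.43 (95% interval -1.30 to 0.45, adjusted p = 0.711 by limma). At 2 or more Nmu UMIs it was found in 0 of 25, 2 of 15 and 5 of 30 cells, and the difference was -0.85 (SE 0.43, adjusted p = 0.313 by limma). P2rx7 differed by -0.27 (-0.92 to 0.38), P2rx4 by 0.47 (-0.16 to 1.10) and P2ry14 by 0.17 (-0.27 to 0.62). P2rx4 stood at 0.365, 0.182 and 0.121 per 10000 in Nmu-positive cells of mice 1, 2 and 3 and at 0.118, 0.137 and 0.113 in Nmu-negative cells, higher in 3 of 3 mice but not called (adjusted p = 0.655 by limma).

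Neuronal markers were higher in the Nmu-positive cells of every mouse, most of all in mouse 1. The neuronal list, all 10 genes detected, summed to 148, 77.9 and 84.0 per 10000 in Nmu-positive cells of mice 1, 2 and 3, against 76.3, 71.7 and 68.2 in Nmu-negative cells. Smooth muscle markers summed to 32.1, 22.3 and 18.3 against 83.1, 16.9 and 10.8, and glial markers to 4.62, 12.3 and 10.9 against 17.3, 13.8 and 12.1. The P2rx2 difference was as large without the smooth muscle and glial signals: 2.25 without cells holding both Acta2 and Myh11 (adjusted p = 0.0497 by limma) and 2.29 without Sox10-positive cells (adjusted p = 0.0103).

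Sox10-positive cells were compared with the rest because Sox10 RNA was so common in cells called neurons. P2rx2 was lower there. It stood at 0.290, 0.264 and 0.320 per 10000 in Sox10-positive cells of mice 1, 2 and 3 and at 0.781, 0.401 and 0.499 in Sox10-negative cells, without overlap. It fell by 0.72 on the log2 scale (SE 0.16, 95% interval -1.08 to -0.35, adjusted p = 0.0449 by limma, lower in 3 of 3 mice) and was the 1 member of 6 called, where 631 of 13021 genes were called (4.85%). The shares of cells differed less, 11.5%, 19.1% and 22.3% against 18%, 20.1% and 21.9%, with Sox10-positive cells the deeper class, at a median of 9212 UMIs against 6994.5.

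This call was lost with a pseudocount of 0.5 (adjusted p = 0.0683 by limma), with every gene of 1 UMI or more tested (0.166), without the mouse as a block (0.484) and without smooth muscle-dominated cells (0.0657). The difference also moved with the Nmu-positive cells. Without them P2rx2 was 0.19 lower (SE 0.13, adjusted p = 0.478 by limma) and was not called, in a fit that called 2.68% of all genes. Of the 70 cells with 2 or more Nmu UMIs, 25 were Sox10-positive. Within the Nos1-only cells, P2rx2 was detected in 27.0% of 544 Sox10-positive and 24.6% of 418 Sox10-negative cells, at 0.431 ± 0.0792 and 0.507 ± 0.0966 per 10000 (SD, n = 3), so the ranges of mean and SD overlap. In Sox10-positive cells with neither Nos1 nor Chat the share was 9.59% of 386 cells.

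P2rx7 lay on the other side. It was detected in 16.2%, 19.4% and 17.7% of Sox10-positive cells in mice 1, 2 and 3 and in 7.77%, 10.5% and 10.8% of Sox10-negative cells, without overlap. Its level was 0.412, 0.211 and 0.185 per 10000 against 0.195, 0.123 and 0.136, higher in 3 of 3 mice. The log2 difference of 0.51 (SE 0.15, 95% interval 0.17 to 0.85, unadjusted p = 0.00816 and adjusted p = 0.0985 by limma) missed the threshold. It was called without mouse 1 (0.37, adjusted p = 0.0429 by limma, with 19.4% of all genes called) and by limma-voom (0.70, adjusted p = 0.0274, with 12.6% of all genes called). After thinning to 3000 UMIs P2rx7 was found in 7.98% ± 3.26 of Sox10-positive and 5.19% ± 0.383 of Sox10-negative cells (SD, n = 3).

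The other members differed less. P2rx4 stood at 0.183, 0.173 and 0.109 per 10000 in Sox10-positive cells against 0.115, 0.0955 and 0.121 in the rest, a log2 difference of 0.27 (95% interval -0.09 to 0.62, adjusted p = 0.373 by limma), with mouse 3 going the other way. Adora1 was at -0.46 (-0.79 to -0.13, unadjusted p = 0.0129 and adjusted p = 0.124 by limma) and was called by limma-voom only (-1.22, adjusted p = 0.0314). P2ry1 was at -0.25 (-0.54 to 0.04) and P2ry14 at -0.05 (-0.28 to 0.19). Of the 6 members 3 had an unadjusted p under 0.05, as had 2673 of all 13021 genes, and the median difference was -0.03 over all genes tested and -0.15 over the 6 members.

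Glial and neuronal markers moved with this class. The glial list of 10 genes, Sox10 included, summed to 26.5, 19.4 and 17.2 per 10000 in Sox10-positive cells of mice 1, 2 and 3 and to 7.96, 5.64 and 4.02 in Sox10-negative cells, in which Sox10 itself is at 0 by the rule. The neuronal list summed to 65.7, 64.6 and 63.2 against 97.9, 82.8 and 81.2. The part of other cells or their free RNA in the P2rx7 and P2rx2 differences was not tested.

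**Figure D3:**
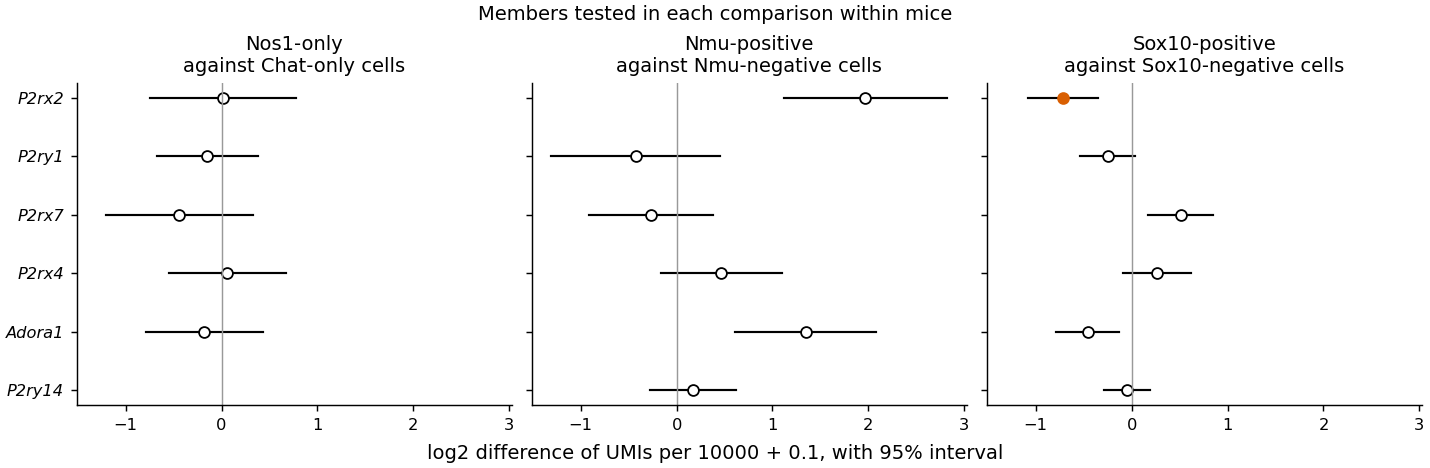
Differences on the log2 scale of UMIs per 10000 + 0.1 for the members with 30 UMIs or more, with 95% intervals from limma over 3 mice, in the 3 comparisons, where the filled orange point marks the only call. P2rx2 stands out to the right in Nmu-positive cells with a wide interval (1.12 to 2.82) and to the left in Sox10-positive cells (-1.08 to -0.35), and in the Nos1-only comparison every interval includes 0.

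By the number of Sox10 UMIs in a cell, P2rx7 was detected in 9.98%, 13.7%, 19.8% and 25.7% of cells at 0, 1, 2 or 3, and 4 or more UMIs, pooled over mice. Depth rose over the same bins, from a median of 6994.5 to 12475 UMIs, so the level is the safer reading: 0.136, 0.177, 0.231 and 0.245 per 10000. P2rx4 went from 0.106 to 0.197 per 10000 over these bins and P2rx2 from 0.476 to 0.223. In mouse 3 P2rx4 was flat, at 0.121 with no Sox10 UMI and 0.117 with 4 or more, and mouse 1 had only 14 cells in the last bin.

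**Figure D4:**
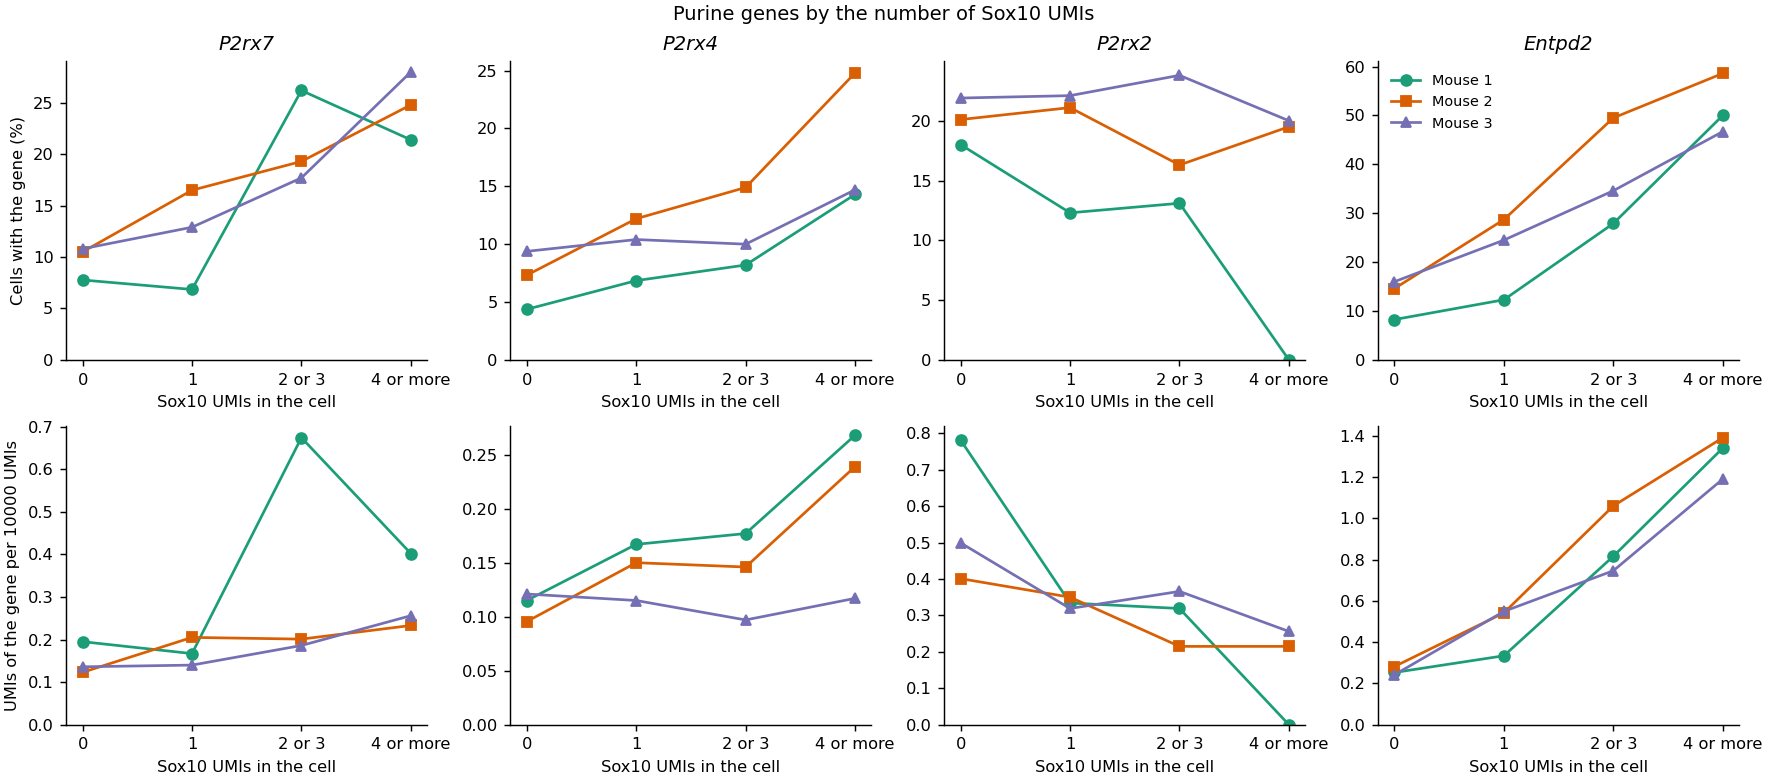
Share of cells with the gene in percent (top) and its UMIs per 10000 UMIs (bottom) by the number of Sox10 UMIs in the cell, 1 line per mouse. Entpd2 was higher in each further bin in all 3 mice and ended between 1.19 and 1.39 per 10000, P2rx7 ended above its start in all 3 mice, and P2rx2 ended below its start in all 3.

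Co-detection of members was read within mice. Adora1 was at 0.281, 0.0465 and 0.122 per 10000 in P2rx2-positive cells of mice 1, 2 and 3 and at 0.0725, 0.0150 and 0.0247 in the P2rx2-negative cells, 3.88, 3.10 and 4.96 times as high. P2ry1 was 0.873, 1.75 and 1.36 times as high in P2rx2-positive cells, with mouse 1 on the other side of 1. P2rx4 was 4.37 times as high in mouse 1 but 0.911 and 1.18 times in mice 2 and 3. P2rx7 was 0.826, 0.959 and 0.867 times as high. Over the receptor genes of the set, with Slc17a9 left out, 1028 of 2060 cells had none and 716 had 1, while 7 had 4 or more.

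The genes most alike to each member were ranked by the lowest, over 3 mice, of their fold in member-positive over member-negative cells, among 10661 genes and as a description. For P2rx2 they were Nmu (9.37 to 32.7-fold over the mice), Cpne4, a calcium-dependent membrane-binding protein (6.04 to 7.59), and Npy2r, a receptor for neuropeptide Y and peptide YY (4.91 to 7.04). For P2ry1 they included Kcnip4, a subunit that modulates potassium channels (3.33 to 3.76), and Pcsk1, a prohormone-cutting protease (2.72 to 3.51). For P2rx7 they included the Wnt inhibitor Sfrp5 (2.25 to 3.88) and the transcription factor Npas3 (2.08 to 2.91). For P2rx4 they were Isg15, Zfp748 and Thbs1, with lowest folds of 2.07, 1.81 and 1.79.

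The rest of the pathway was read from a list of 37 genes. Of 11 further receptors 7 had a UMI, and the pyrimidine nucleotide receptor P2ry6 alone passed 5% of cells, at 13.1%. P2ry4, P2ry10, P2ry13 and Adora3 had none in 2060 cells. Of the ATP release channels, Panx1 was detected in 15.2% of cells, Gja1 in 9.32% and Panx2 in 5.44%, with no Panx3. Of the nucleoside transporters, Slc29a1 was detected in 38.0%, with Slc29a4 at 16.0% and Slc29a3 at 7.43%.

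The list also held enzymes that act on nucleotides and nucleosides. Adk, which turns adenosine back into AMP, was detected in 32.0% of cells, Entpd2, which cuts ATP to ADP on the cell surface, in 25.8%, Enpp1 in 24.5%, Entpd3 in 18%, Pnp in 11.7% and Enpp2, best known for making lysophosphatidic acid, in 7.23%. Nt5e, which makes adenosine from AMP, was found in 1.84%. Of the list, 14 genes were tested between Nos1-only and Chat-only cells and 19 in each of the others, and the calls were 0, 0 and 1, where 0.172%, 0.023% and 4.85% of all genes were called. A single call among 19 is near the share of all genes in the Sox10 comparison.

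The 1 call was Entpd2, a known marker of enteric glia, in the Sox10 comparison. It stood at 0.656, 0.963 and 0.775 per 10000 in Sox10-positive cells of mice 1, 2 and 3 and at 0.253, 0.282 and 0.242 in Sox10-negative cells, without overlap. It rose by 1.31 on the log2 scale (SE 0.12, adjusted p = 0.00143 by limma). Between Nos1-only and Chat-only cells, Enpp1 stood at 1.04, 0.759 and 0.637 per 10000 against 0.605, 0.0671 and 0.0810, a log2 difference of 1.69 (adjusted p = 0.17 by limma). Entpd3 stood at 0.462, 0.384 and 0.459 against 0.151, 0.134 and 0.189 (1.05, adjusted p = 0.17), and P2ry6 at 0.330, 0.315 and 0.240 against 0.151, 0.114 and 0.0630 (0.93, adjusted p = 0.245). None of these was called, although each was higher in Nos1-only cells in 3 of 3 mice. Markers of other cells moved the same way: smooth muscle markers summed to 34.7, 21.1 and 13.5 per 10000 in Nos1-only cells of mice 1, 2 and 3 against 20.7, 7.33 and 8.66 in Chat-only cells, and glial markers to 13.5, 14.4 and 11.8 against 11.8, 8.88 and 5.98. Sox10 was detected in 56.5% of Nos1-only and 37.9% of Chat-only cells, and the part of such cells in these differences was not tested.

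Positions of the members whose levels carry these results are given in GRCm38. P2rx2 lies on chromosome 5 from 110339812 to 110343212 on the minus strand, P2rx7 on chromosome 5 from 122643911 to 122691432 on the plus strand and P2rx4 beside it from 122707544 to 122729738, also on the plus strand. P2ry1 lies on chromosome 3 from 61002795 to 61008982 on the plus strand, and Adora1 on chromosome 1 from 134199223 to 134235431 on the minus strand. Adora1 overlaps Mybph on the other strand, which had 3 UMIs in all cells, and P2ry1 overlaps Gm37035, which had 113. P2rx3 overlaps Ssrp1 on the other strand, P2rx6 overlaps Slc7a4 and P2ry14 overlaps Med12l.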

How the data were processed

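Small intestinal tdTomato-positive cells of 3 mice were profiled with droplet 3' single-cell RNA sequencing. The authors aligned the reads to mm10 and made the gene by cell matrix with Cell Ranger, per the labels and methods; versions are not given in the sources used here. They kept cells by gene number and mitochondrial share, removed some genes and removed cells they called non-neuronal. How doublets were treated is not given, and no caller was run here. The deposited values are natural log values, ln(1 + UMIs per 10000), and no column was of unknown origin.

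Whole UMIs were recovered from these values: each of 6435281 values above 0 was whole within 1e-06. UMIs of genes no longer listed made up 1.90% to 34.0% of a cell's total (median 12.7%), and totals include them. Mice gave 1526256, 10358118 and 6412495 UMIs. Cells were classed by UMIs of Nos1, Chat, Nmu and Sox10 (1 or more), and UMIs were summed per mouse and class, with at least 10 cells per sum. Each comparison was fitted with limma 3.58.1 (R 4.3.3; eBayes with trend) on log2(UMIs per 10000 + 0.1) with the mouse as a block, for genes with at least 30 UMIs, with Benjamini-Hochberg adjustment over all genes tested and calls at an adjusted p under 0.05, two-sided. A fold on this scale understates that of low genes. Replicates are individual mice. Intervals of shares are exact binomial at 95% and a 0 count was read against 3 counts, both for counting error only.

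The fit was tested on simulated data, where 200 genes changed 4-fold. Of these, 70.0%, 86.5% and 97.5% were recovered in the Nos1, Nmu and Sox10 comparisons. The comparisons held 12243, 13022 and 13022 genes and gave 0, 1 and 1 false calls. The 200 changed genes were drawn only from genes with more UMIs than P2rx4 had (154, 241 and 241 in these comparisons). Each rate is for all 200 together and was not split by UMIs. It therefore does not give the recovery of members with few UMIs. Examples are Adora1 (41, 71 and 71 UMIs in these comparisons) and P2ry14 (31 in the Nmu and Sox10 comparisons). Alternatives were other pseudocounts (0.02, 0.5), other filters (1 or 100 UMIs), limma-voom, no mouse block, 2 UMIs for the class, cells thinned to 3000 UMIs, cells left out by Acta2 and Myh11 or by Sox10, and each mouse left out. Leaving out smooth muscle-dominated or Nmu-positive cells, and the bins of Nmu and Sox10 UMIs, were chosen after seeing the data. The members and lists were chosen with earlier results of these data known. All members were reported. Other pathway genes were named where called or in at least 5% of cells, except Nt5e and the undetected genes, which were named after their values were seen. The 3 most alike genes were named for members in at least 5% of cells, among genes in at least 100 cells, where each mouse had at least 20 positive cells, and some of them are not reported here. Gene positions are from GENCODE on GRCm38, by symbol.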

Additional observations from a re-analysis of the deposited data

How the results depend on the processing

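Of 215 refits of single members over 17 tested differences, 177 kept direction and side of the threshold, 15 became calls, 5 lost the call and 18 changed sign, none of the latter with a call; the cause was not tested. The 5 lost calls were all P2rx2 in Sox10-positive cells: -0.41 with a pseudocount of 0.5 (adjusted p = 0.0683 by limma), -0.72 with every gene of 1 UMI or more (0.166), -0.72 without the mouse block (0.484), -0.75 without smooth muscle-dominated cells (0.0657) and -0.19 without Nmu-positive cells (0.478).

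Genes called between Nos1-only and Chat-only cells (21) were 3 with a pseudocount of 0.02, 57 with 0.5, 4 from 1 UMI, 1314 by limma-voom, 9 without the mouse block, 2190 with 2 UMIs for the class (2 mice, since mouse 1 kept 2 Chat-only cells), 41 without Sox10-positive cells, 38 without Nmu-positive cells and 141 to 2140 with a mouse left out, where members called were 0 to 1. Signs changed for P2rx2 at -0.036 with a pseudocount of 0.5, -0.13 thinned, -0.12 without cells with Acta2 and Myh11, -0.21 without Sox10-positive cells, and -0.21 to 0.45 with a mouse left out (-0.20 without mouse 2, 0.45 without mouse 1); for P2rx4 at -0.062 by limma-voom, -0.10 thinned, -0.050 without Acta2 and Myh11 and as low as -0.030 with a mouse left out; for P2rx7 at 0.021 with 2 UMIs and 0.28 thinned; for P2ry1 at 0.15 with 2 UMIs and 0.14 without Sox10-positive cells; and for Adora1 at 0.030 without mouse 1.

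Genes called in Nmu-positive cells (3) were 0 with a pseudocount of 0.5, 0 from 1 UMI, 0 without the replicate block, 145 by limma-voom, 534 with 2 UMIs, 19 thinned, 19 without Acta2 and Myh11, 13 without smooth muscle-dominated cells, 54 without Sox10-positive cells and 66 to 130 with a mouse left out. Members called (0) were 2 by limma-voom, 2 with 2 UMIs, 1 thinned, 1 without Acta2 and Myh11, 1 without Sox10-positive cells and 1 to 2 with a mouse left out. P2ry1 changed sign at 0.0053 by limma-voom and ranged from -0.78 to 0.16 with a mouse left out, and P2rx7 from -0.55 to 0.036.

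Genes called in Sox10-positive cells (631) were 141 from 1 UMI, 1640 by limma-voom, 0 without the mouse block, 304 thinned, 344 without Nmu-positive cells and 460 to 2465 with a mouse left out. Members called (1) were 3 by limma-voom, 0 in the 5 settings above and 1 to 2 with a mouse left out. A fit on 2 mice rests on 1 residual degree of freedom. Shares of cells moved by more than 1 SD between mice in 17 of 70 recomputations, mainly with 2 UMIs or thinning, so shares are bound to depth. Members with under 30 UMIs could not be tested.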
